A study of Homo sapiens with 16 samples.

Results

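The growth factor receptors of blood cells were examined as a set of 9 genes: KIT, FLT3, CSF1R, CSF2RB, CSF3R, EPOR, IL6R, IFNGR1 and CXCR4. Members were taken by symbol from the count table, and all 9 were found among its 25221 genes. RNA had been collected from MOLM13, an acute myeloid leukemia line, at passages 8 to 12, and from K562, a chronic myeloid leukemia line, at passages 12 to 18. Cells of both lines received 20 µM Ro 08-2750 (Ro), a small molecule that the study used against the RNA-binding protein MSI2, or the DMSO vehicle alone for 4 h, with 0.1% DMSO in the Ro cultures. Each of the 4 groups had 4 libraries, numbered as pairs 1 to 4 within a line, which gave 16 libraries. The sources do not state whether pairs are separate cultures, so the p-values measure the spread between these libraries, which may be technical. Each line stands for its disease as 1 line only, so line and disease cannot be told apart.

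Most of these receptors bind secreted factors that keep blood progenitors alive or direct them into lineages. KIT, FLT3 and CSF1R are receptor tyrosine kinases, which dimerize on ligand and phosphorylate themselves. CSF2RB (the shared beta chain for GM-CSF, IL-3 and IL-5), CSF3R, EPOR, IL6R and IFNGR1 have no kinase of their own and signal through JAK kinases and STAT factors, IL6R by way of the partner chain IL6ST. CXCR4 is a G protein-coupled receptor for the chemokine CXCL12 and holds progenitors in the marrow. MOLM13 is known for an internal tandem duplication in FLT3, and K562 for the BCR-ABL fusion kinase.

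Library totals lay between 3143129 and 43571060 counts. In K562 with DMSO, pair 2 (3143129) and pair 4 (4383241) had the least depth of all. Levels are in CPM, counts scaled to the library's TMM-adjusted total over all 16 libraries. The kit reads the 3′ end of each transcript, so a level counts transcripts and was not divided by gene length. The line labels were checked against cell type markers. Of 17 erythroid markers, 14 reached a mean of 10 CPM in K562 DMSO and 2 did in MOLM13 DMSO. Their summed level was 2670 to 4475 CPM against 170 to 198 CPM, although HBE1 held 0 counts in every library of both lines. Of 18 monocytic and granulocytic markers, 13 reached 10 CPM in MOLM13 DMSO and 4 in K562 DMSO, and HOXA9 was at 0 in K562. CD14 was at 0.173 CPM in MOLM13 DMSO, and FCGR1A, like HBE1, held 0 counts in every library. What a 0 in every library reflects was not tested. None of 12 lymphoid and 6 megakaryocyte markers reached that level in any group.

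The lines differ in lineage factors known to bind near these genes, so the stretch before the start of 5 receptors is shown, from the RefSeq table of GRCh38.p14. The table had a window for 8 of the 9 receptors and none for CSF2RB. The 250 bases before each start were searched on both strands for AGATAA (the GATA motif), GAGGAA (PU.1) and TGTGGT (RUNX), and capitals mark their matches. Motifs named STAT, SP1, E-box, TATA and C/EBP were searched too and are not marked. Bases inside an annotated exon are left out, so each run is shorter than its window. FLT3, CXCR4 and IL6R were chosen because they differed most between the lines, KIT because it was higher in K562, and CSF1R, at its internal start, because it was detected in both.
FLT3, chr13:28100593-28100826, minus strand: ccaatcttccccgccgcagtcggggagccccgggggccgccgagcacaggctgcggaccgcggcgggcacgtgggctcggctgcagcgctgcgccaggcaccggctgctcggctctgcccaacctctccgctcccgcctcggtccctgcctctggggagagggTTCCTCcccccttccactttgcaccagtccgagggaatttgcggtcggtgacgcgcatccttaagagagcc
CXCR4, chr2:136118166-136118399, minus strand: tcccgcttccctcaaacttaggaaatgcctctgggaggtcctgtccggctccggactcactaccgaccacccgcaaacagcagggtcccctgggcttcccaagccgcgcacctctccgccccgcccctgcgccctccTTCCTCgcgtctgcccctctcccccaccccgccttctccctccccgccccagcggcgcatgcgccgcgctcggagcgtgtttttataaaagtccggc
IL6R, chr1:154405093-154405192, plus strand: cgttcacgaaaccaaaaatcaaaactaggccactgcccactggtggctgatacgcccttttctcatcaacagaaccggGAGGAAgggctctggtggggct
CSF1R, chr5:150086608-150086804, minus strand: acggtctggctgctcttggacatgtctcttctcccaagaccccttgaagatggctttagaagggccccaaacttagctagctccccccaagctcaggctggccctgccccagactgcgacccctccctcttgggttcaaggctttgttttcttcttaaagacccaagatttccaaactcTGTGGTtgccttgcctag
KIT, chr4:54657707-54657917, plus strand: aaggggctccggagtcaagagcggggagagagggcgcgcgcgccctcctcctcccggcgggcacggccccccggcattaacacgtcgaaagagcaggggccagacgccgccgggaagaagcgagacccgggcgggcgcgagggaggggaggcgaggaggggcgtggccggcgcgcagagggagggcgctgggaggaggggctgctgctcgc
The PU.1 letters were present in the windows of FLT3, CXCR4 and IL6R that are printed, and in windows of CSF3R and IFNGR1 that are not. They were absent from a further window of each of CXCR4, CSF3R and IFNGR1. TGTGGT was present before the internal start of CSF1R, whose window also held GAGGAA 2 times in its exon part. Neither motif was present before the other start of CSF1R. KIT held none of the 3 motifs. EPOR held AGATAA 1 time, in a window that lies wholly inside an exon annotated at that place and is not printed. The C/EBP letters TTNCNNAA were present in windows of CSF1R, CSF3R, CXCR4, IFNGR1 and IL6R, and absent from those of FLT3, KIT and EPOR. Over all 35116 windows of this length, 23.6% held GAGGAA, 11.0% TGTGGT, 9.17% AGATAA and 33.2% TTNCNNAA. These shares are per window, while some receptors had several windows, so receptors with any match cannot be set against them. A match is a description, not a binding site.

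With DMSO, 4 receptors were abundant in MOLM13. IL6R had a mean of 339 ± 54.5 CPM (SD, n = 4) and CSF1R 322 ± 16.9, which overlapped. FLT3 followed at 160 ± 18.8 CPM and CXCR4 at 101 ± 33.3, each without overlap with its neighbours in the order. CSF3R at 14.6 ± 0.343 CPM and IFNGR1 at 14.3 ± 3.61 overlapped, and CXCR4 was 6.92 times as high as CSF3R. EPOR at 3.71 ± 1.19 and KIT at 3.50 ± 1.17 also overlapped, and CSF2RB was the lowest, at 1.43 ± 0.808 CPM.

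In K562 with DMSO, CSF1R stood alone at the top with 132 ± 43.4 CPM, 11.6 times the level of KIT, at 11.4 ± 4.15. The place of CSF1R in both lines is uncertain, because its counts are uncertain for reasons of annotation set out below. From KIT down through IFNGR1 (8.22 ± 1.51), EPOR (5.30 ± 2.59), FLT3 (3.10 ± 0.943), IL6R (1.85 ± 0.584), CSF3R (1.13 ± 1.24) and CSF2RB (0.589 ± 0.549), each receptor overlapped the next. CXCR4 was last, at 0.0568 ± 0.0758 CPM, below the range of CSF2RB. Its 0 counts in pairs 2 and 4 allowed up to 0.872 and 0.525 CPM, so those libraries cannot set it apart from CSF2RB.

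**Figure D1:**
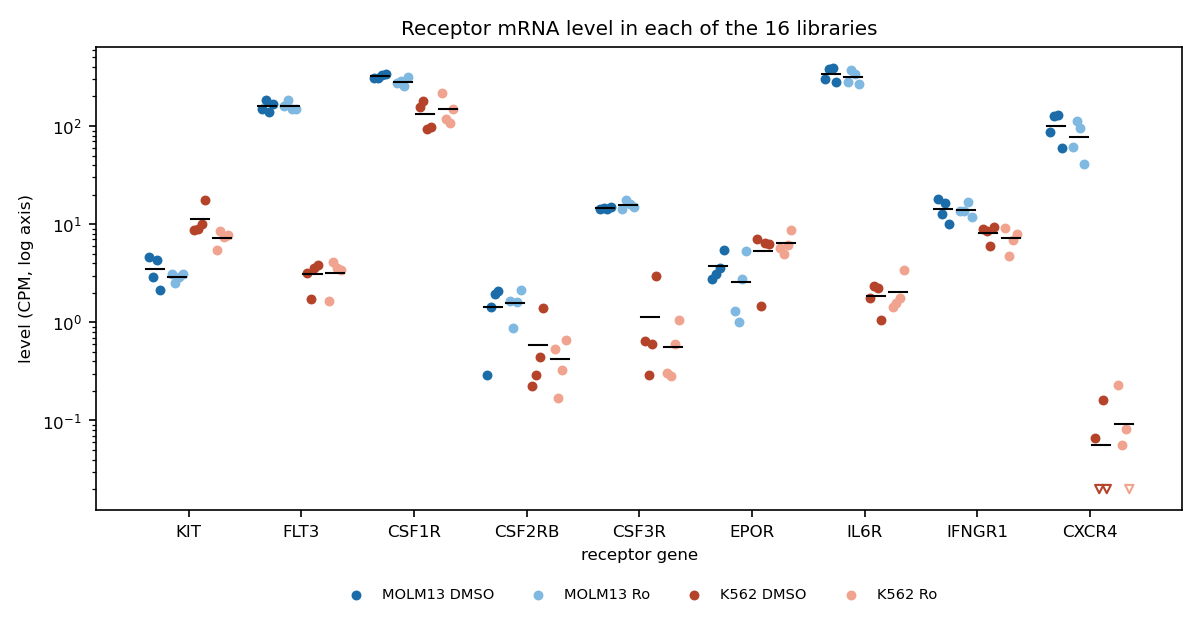
Level of each receptor in CPM (log axis) in each of the 16 libraries, with 4 points per group from pair 1 on the left to pair 4 on the right, a black bar at the group mean, and open triangles at the foot for libraries with 0 counts. FLT3, IL6R, CSF3R and CXCR4 of MOLM13 (blue) lie above all K562 libraries (red), whereas KIT lies below them.

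The first comparison asked in which line each receptor was the higher, among DMSO libraries. Of the 9 receptors, 8 differed (edgeR quasi-likelihood test, adjusted p under 0.05), against 41.3% of all genes tested. Levels of the 4 MOLM13 and the 4 K562 libraries did not overlap for 7 receptors, against 39.4% of all genes. The receptors were chosen with earlier results of these data known, so neither share tests whether receptors differ more often than other genes. CXCR4 held 0 to 4 counts per K562 DMSO library and was tested only because its MOLM13 counts were high enough. MOLM13 was higher for 7 of the 8 receptors that differed, and KIT was the exception. CSF1R is among those higher in MOLM13, and its counts are uncertain, as set out below. In bulk RNA, fewer cells with a transcript and less of it per cell cannot be told apart.

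Among the tyrosine kinases, FLT3 (chr13:28003274-28100592), the receptor for FLT3 ligand, had 149, 183, 141 and 167 CPM in MOLM13 pairs 1 to 4 with DMSO and 3.20, 1.74, 3.60 and 3.85 CPM in K562. Every MOLM13 library was far above every K562 library. The difference was 5.63 on the log2 scale (SE 0.272, edgeR adjusted p = 4.674e-09). FLT3 in K562 rested on 6 to 143 counts per library, so it was low but detected.

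KIT (chr4:54657918-54740715), the stem cell factor receptor, was the receptor higher in K562, where its DMSO libraries had 8.78, 9.01, 10.1 and 17.5 CPM, against 4.62, 2.92, 4.32 and 2.15 in MOLM13. The groups did not overlap, and the log2 difference, MOLM13 less K562, was -1.72 (SE 0.321, edgeR adjusted p = 0.0006983). Without the K562 library of pair 4, the highest, the difference was -1.44.

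CSF1R (chr5:150053291-150113372), the M-CSF receptor, had 311, 305, 330 and 342 CPM in MOLM13 and 155, 181, 92.7 and 98.1 in K562. MOLM13 was higher by 1.30 on the log2 scale (SE 0.248, edgeR adjusted p = 0.0008235) without overlap. The counts of this gene are uncertain for reasons of annotation. RPL7P1, a processed copy of the ribosomal protein gene RPL7, lies within the span of CSF1R at chr5:150094302-150095048 on the other strand and touches no annotated CSF1R exon, and HMGXB3 ends 148 bases from the 3′ end of CSF1R, also on the other strand. How the counting treated strand, near-identical copies and introns is not given in the sources used here.

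RPL7 itself had 1619 ± 61.1 CPM in MOLM13 DMSO and 593 ± 105 in K562 DMSO (n = 4 each), a log2 difference of 1.46 (SE 0.208, edgeR adjusted p = 7.34e-05) beside the 1.30 of CSF1R. For every 100 RPL7 reads there were 18.6, 18.8, 20.0 and 22.3 CSF1R reads in the MOLM13 DMSO libraries and 20.6, 33.4, 17.1 and 18.3 in those of K562. The Ro libraries had 17.5 to 22.3 in MOLM13 and 20.0 to 24.9 in K562. The 2 lines therefore overlapped in this ratio while they did not overlap in CSF1R itself. HMGXB3 went the other way, with 31.8 ± 3.44 CPM in MOLM13 DMSO and 40.7 ± 5.81 in K562 DMSO. The part of RPL7 reads in the CSF1R counts was not tested.

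**Figure D2:**
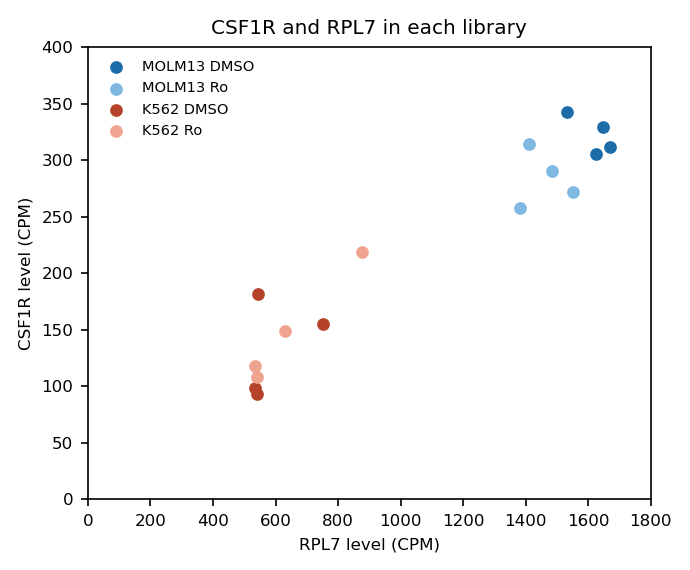
CSF1R level against RPL7 level, both in CPM on linear axes from 0, with 1 point per library and colours for the 4 groups. MOLM13 libraries lie at 1383 to 1670 CPM of RPL7 and K562 libraries at 535 to 875, and the line with more RPL7 also has more CSF1R. Within a line this does not always hold. Among MOLM13 DMSO libraries, pair 4 has the lowest RPL7 (1531 CPM) and the highest CSF1R (342 CPM).

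Among the cytokine receptors, IL6R (chr1:154405193-154469450), the ligand-binding IL-6 receptor chain, had 301, 381, 390 and 283 CPM in MOLM13 and 1.79, 2.33, 2.24 and 1.05 in K562. MOLM13 was higher by 7.50 on the log2 scale (SE 0.314, edgeR adjusted p = 2.057e-09). Summed over libraries there were 28439 counts against 150, a ratio after scaling of 177 (exact 95% interval 151 to 209, counting error only). IL6R-AS1 overlaps its first bases on the other strand, with its own 3′ end at chr1:154402328, outside the span of IL6R. Whether reads of the antisense gene entered the IL6R counts was not tested. PSMD8P1, a copy of PSMD8, lies within the span of IL6R, and KATNBL1P1, a copy of KATNBL1, within that of FLT3. The parent genes were not distributed like the receptors, since PSMD8 had 268 CPM in MOLM13 DMSO and 428 in K562 DMSO, and KATNBL1 32.4 and 29.4.

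CSF3R (chr1:36466043-36483278), the G-CSF receptor of the granulocyte lineage, was steady in MOLM13 at 14.3, 14.8, 14.3 and 15.0 CPM. K562 had 0.648, 0.291, 0.601 and 2.98 CPM, or 1 to 29 counts per library. The difference was 3.93 on the log2 scale (SE 0.461, edgeR adjusted p = 1.217e-05), and no K562 library came near the MOLM13 range.

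CSF2RB (chr22:36913628-36940449) was low in both lines, with 0.289, 1.42, 1.93 and 2.06 CPM in MOLM13 and 0.224, 0.291, 0.440 and 1.40 in K562. The ranges overlapped because MOLM13 pair 1, on 2 counts, lay among the K562 libraries, while the other MOLM13 libraries lay above them. The difference of 1.77 on the log2 scale (SE 0.580) had an edgeR adjusted p of 0.02587, which rose to 0.1524 without K562 pair 1, to 0.09377 without K562 pair 3 and to 0.065 without MOLM13 pair 3.

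IFNGR1 (chr6:137197484-137219449), the ligand-binding chain for interferon gamma, differed least among the receptors called. Its levels were 18.1, 12.7, 16.3 and 10.0 CPM in MOLM13 and 8.94, 8.43, 6.05 and 9.46 in K562, which did not overlap. The log2 difference was 0.80 (SE 0.254, edgeR adjusted p = 0.02111). The adjusted p was 0.06228 without MOLM13 pair 1, 0.06838 without MOLM13 pair 3 and 0.08859 without K562 pair 3.

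EPOR (chr19:11377205-11384342), the erythropoietin receptor, had 2.74, 3.10, 3.57 and 5.41 CPM in MOLM13 and 7.04, 1.45, 6.41 and 6.31 in K562. The K562 library of pair 2 held 5 counts and lay below all MOLM13 libraries, while the other K562 libraries lay above them. The difference of -0.56 on the log2 scale (SE 0.365) did not pass, with an edgeR adjusted p of 0.2418 and a 95% interval from -1.35 to 0.22. Without that library it was -0.78 with an adjusted p of 0.03811. EPOR was the 1 receptor not called between the lines with all libraries in. RGL3, on the same strand, shares 2 bases with EPOR and had means of 3.62 CPM in MOLM13 DMSO and 3.82 in K562 DMSO. SWSAP1 lies 253 bases away on the other strand. The part of these genes in the EPOR counts was not tested.

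CXCR4 (chr2:136114349-136118165) showed the widest gap. MOLM13 had 88.0, 125, 131 and 60.1 CPM, or 609 to 2828 counts, and the K562 libraries held 3, 0, 4 and 0 counts. The totals of 8173 and 7 counts gave a ratio after scaling of 1090 (exact 95% interval 528 to 2710, counting error only). A count of 0 allowed up to 0.872 CPM in the smallest K562 library and 0.525 in the next, so CXCR4 in K562 was at the limit of detection.

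**Figure D3:**
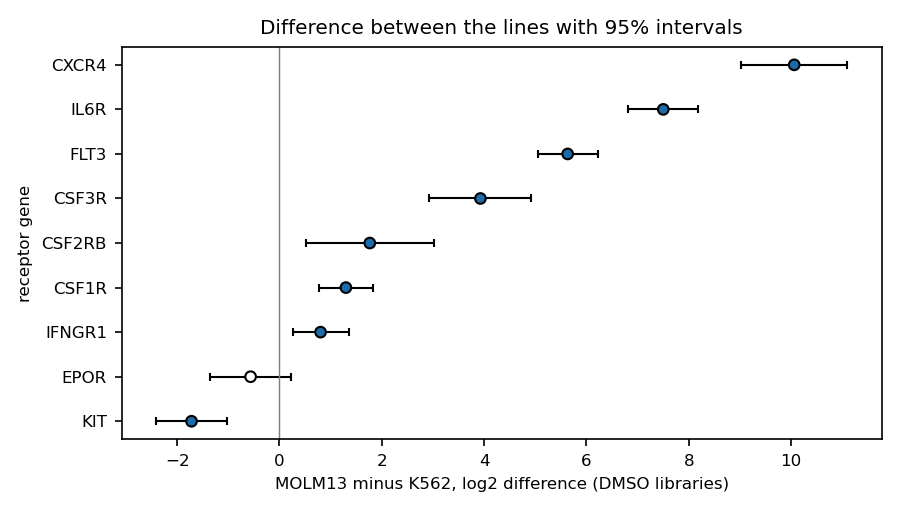
Log2 difference between MOLM13 and K562 DMSO libraries for each receptor, with 95% intervals from edgeR, filled where the adjusted p is under 0.05. Values run from -1.72 for KIT to 10.06 for CXCR4, and the interval of EPOR alone spans 0.

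The second comparison asked whether 4 h of Ro changed the receptors. In MOLM13 none of the 9 passed when the pair number was left out, as was the case for 0% of the 15031 genes tested (edgeR, 175 genes with an unadjusted p under 0.05, and 1 gene called by DESeq2). None of the 9 had an unadjusted p under 0.05. With the pair number as a block, 317 genes or 2.11% passed and 1 of the 9 receptors did, CXCR4. Ro and DMSO libraries overlapped for all 9 receptors, against a lack of overlap in 1.35% of all genes.

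CXCR4 fell in MOLM13 under the paired fit. Its level went from 88.0 to 60.9 CPM in pair 1, from 125 to 111 in pair 2, from 131 to 95.6 in pair 3 and from 60.1 to 40.9 in pair 4. All 4 pairs moved down, by 0.53, 0.17, 0.45 and 0.56 in size on the log2 scale of each pair, while the pairs themselves differed more than that. The paired change was -0.41 (SE 0.0769, edgeR adjusted p = 0.006239, DESeq2 adjusted p = 0.000851), a level 0.755 times that with DMSO. The unpaired change was -0.37 (SE 0.335, adjusted p = 0.9999). Leaving out pair 3 gave -0.40 with an adjusted p of 0.0988, and leaving out pairs 1, 2 or 4 gave adjusted p of 0.04776, 0.005144 and 0.0191.

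CSF1R, EPOR and IL6R were also lower in 4 of 4 MOLM13 pairs but did not pass. CSF1R went from 311, 305, 330 and 342 CPM to 272, 290, 257 and 314, with a paired log2 change of -0.17 (SE 0.0686, edgeR adjusted p = 0.1966), and RPL7 showed -0.14 (SE 0.0632, adjusted p = 0.27). EPOR went from 2.74, 3.10, 3.57 and 5.41 CPM to 1.31, 1.01, 2.75 and 5.31. Pairs 1 and 2 carried most of its difference, on 15 counts in each Ro library, and its paired change was -0.51 (SE 0.21, edgeR adjusted p = 0.2044). IL6R went from 301, 381, 390 and 283 CPM to 284, 369, 338 and 271, a paired change of -0.09 (SE 0.066, edgeR adjusted p = 0.5402).

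The other 5 receptors had no common direction in MOLM13. FLT3 stayed at 159, 182, 149 and 149 CPM with Ro, and its paired change was 0.02 with a 95% interval from -0.13 to 0.17. CSF3R with Ro had 14.4, 17.6, 16.2 and 15.0 CPM (paired change 0.13, interval -0.07 to 0.33) and IFNGR1 13.7, 13.8, 16.7 and 11.7 CPM (0.04, interval -0.19 to 0.26). KIT with Ro had 3.14, 2.5, 2.89 and 3.10 CPM, lower in 3 of 4 pairs (-0.16, interval -0.57 to 0.24). CSF2RB with Ro had 1.66, 0.878, 1.60 and 2.15 CPM, and its interval from -0.56 to 0.60 leaves a change of either sign possible.

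**Figure D4:**
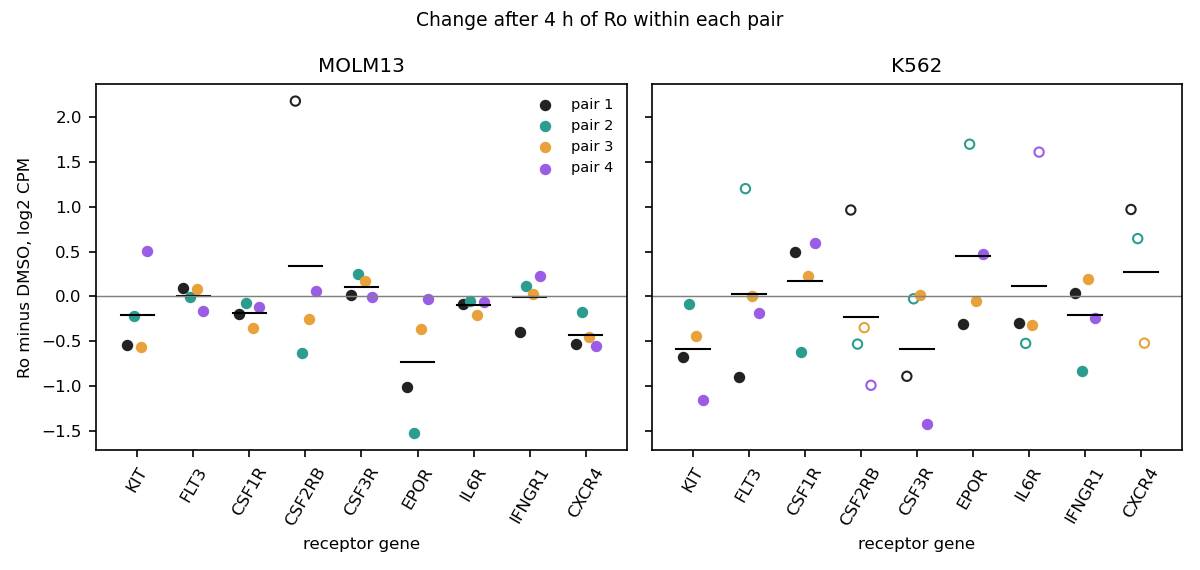
Log2 change from DMSO to Ro within each pair, for MOLM13 (left) and K562 (right), with a bar at the mean of the pairs. Open circles mark pairs with under 10 counts in either library, and a pair with 0 counts in both is not drawn. All 4 MOLM13 points of CXCR4 and all 4 K562 points of KIT lie below 0.

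In K562, 7 receptors had enough counts to be tested, and CSF2RB and CXCR4 did not. None of the 7 passed, and neither did any other gene (0% of 15227, edgeR, 187 genes with an unadjusted p under 0.05, and 0 called by DESeq2). The paired fit also gave 0% in edgeR, with 322 genes at an unadjusted p under 0.05, and 2 genes in DESeq2. KIT was the only receptor whose Ro and DMSO libraries did not overlap, against 1.25% of all genes tested.

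KIT in K562 went from 8.78 to 5.46 CPM in pair 1, from 9.01 to 8.50 in pair 2, from 10.1 to 7.46 in pair 3 and from 17.5 to 7.83 in pair 4. Every Ro library lay under every DMSO library. The log2 change was -0.61 (SE 0.258, 95% interval -1.17 to -0.05), with an edgeR adjusted p of 0.9998, and -0.61 (SE 0.213, adjusted p = 0.9469) with the pair as a block. Without the DMSO library of pair 4 the change was -0.34. In pairs 1 and 3 alone, which leave out the 2 smallest DMSO libraries, it was -0.56 with an adjusted p of 0.07208.

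The other receptors of K562 moved in both directions. CSF1R went from 155, 181, 92.7 and 98.1 CPM to 218, 118, 108 and 148, with RPL7 going from 751, 543, 542 and 535 CPM to 875, 535, 541 and 631. CSF1R passed only in the fit of pairs 1 and 3 alone (log2 change 0.35, edgeR adjusted p = 0.02032), in which 418 genes passed. EPOR with Ro had 5.69, 4.93, 6.17 and 8.82 CPM, and its change of 0.19 went to -0.04 without the DMSO library of pair 2.

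FLT3 with Ro had 1.67, 4.14, 3.61 and 3.38 CPM in K562, a change of 0.01 with a 95% interval from -0.66 to 0.68. IL6R had 1.44, 1.59, 1.79 and 3.41 CPM, IFNGR1 9.18, 4.70, 6.94 and 8.00, and CSF3R 0.303, 0.283, 0.608 and 1.05. These levels overlapped those with DMSO. CSF2RB held 3 to 20 counts and CXCR4 0 to 3 counts in the K562 Ro libraries.

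The difference between the lines in the Ro change was tested for each receptor, and none of the 9 passed, without or with the pair within line as a block (0% of 16224 genes in each edgeR fit, 218 genes with an unadjusted p under 0.05 without the block and 975 with it, and 0 and 3 genes called by DESeq2). The change of CXCR4 in MOLM13 was therefore not shown to differ from that in K562. The log2 difference was -0.10 (95% interval -3.32 to 3.12) without the block and -0.84 (interval -2.45 to 0.78) with it. The few K562 counts leave a difference of either sign possible in both fits. For KIT the difference without the block was 0.39 (interval -0.40 to 1.18) and for EPOR -0.69 (interval -1.92 to 0.54). The largest paired value was that of CSF3R, 0.94 (SE 0.345, edgeR adjusted p = 0.7664), on 1 to 32 counts per K562 library.

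The pairs were compared last, to set the spread between pairs beside the change with Ro. In MOLM13, 5 of the 9 receptors differed between pairs, FLT3, EPOR, IL6R, IFNGR1 and CXCR4, against 58.7% of all genes tested, so the share is near the background. CXCR4 had the clearest pattern. Its mean over DMSO and Ro lay 0.50 above the line mean in pair 2 and 0.43 above in pair 3, and -0.19 and -0.75 from it in pairs 1 and 4, on the log2 scale. The fitted range over pairs was 1.27 (edgeR adjusted p = 7.376e-09), wider than the change with Ro.

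EPOR was highest in pair 4 at 0.93 above the line mean and lowest in pair 2 at -0.60, with a fitted range of 1.41 (edgeR adjusted p = 0.0005668). IL6R had its pairs in the same order as CXCR4, with pairs 2 and 3 at 0.21 and 0.16 and pairs 1 and 4 at -0.15 and -0.23 (range 0.46, adjusted p = 0.0004961). IFNGR1 ranged over 0.62 (adjusted p = 0.003842), highest in pairs 3 and 1. FLT3 ranged over 0.34 (adjusted p = 0.03347), which DESeq2 put at 0.0551, and it was 0.153, 0.1288, 0.1857 and 0.08873 without the DMSO or Ro library of pair 2 or the DMSO or Ro library of pair 3. IFNGR1 went to 0.05464 without the DMSO library of pair 4. KIT passed without the Ro library of pair 4 (range 1.10, adjusted p = 0.01658), and CSF2RB without the Ro library of pair 1 (range 2.86, adjusted p = 0.01124) or with no filter (range 0.91, adjusted p = 0.04272). CSF3R and CSF1R had the smallest ranges of the 9, 0.13 and 0.16. What the members of a pair share is not given in the sources used here.

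**Figure D5:**
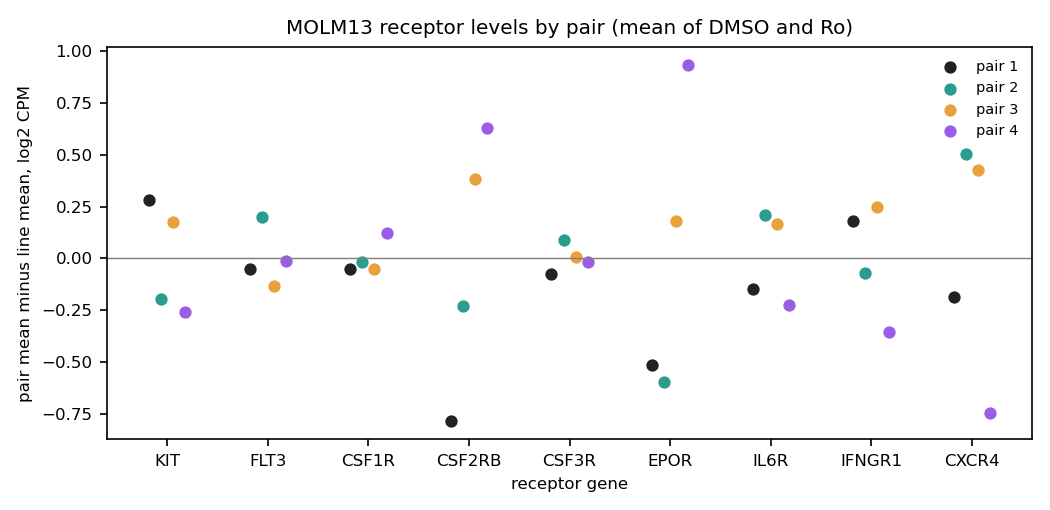
Mean of the DMSO and Ro level of each pair less the mean of the MOLM13 line, in log2 CPM, for each receptor, with 1 colour per pair. CXCR4 is lowest and EPOR highest in pair 4.

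In K562 none of the 7 receptors tested passed between pairs, by edgeR or DESeq2, against 0.131% of all genes, and CSF3R had an unadjusted p under 0.05. CSF3R had the widest fitted range, 2.36 (edgeR adjusted p = 0.3127). Its pair 4 was the highest both with DMSO (2.98 CPM on 17 counts) and with Ro (1.05 CPM on 32 counts). CSF1R ranged over 0.86 in K562 (adjusted p = 0.4589) and RPL7 over 0.59 (adjusted p = 0.441).

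Ligands of these receptors were mostly close to 0 in both lines. Of 12 ligand genes, KITLG, which encodes stem cell factor, was the highest in MOLM13, at 6.50, 7.58, 6.90 and 5.10 CPM with DMSO, against 0.335 to 0.872 in K562. With Ro it had 10.6, 14.1, 12.7 and 5.91 CPM in MOLM13, higher in 4 of 4 pairs. It rose by 0.70 on the log2 scale in the paired fit (SE 0.133, edgeR adjusted p = 0.00624) and by 0.75 without passing in the unpaired fit (SE 0.271). In pair 4 the step was small. KIT, its receptor, was at 3.50 CPM in MOLM13 DMSO.

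FLT3LG, the FLT3 ligand, had means of 2.76 CPM in MOLM13 DMSO and 3.39 in K562 DMSO. The M-CSF gene CSF1 was higher in K562, at 1.46 against 0.206 CPM (log2 difference -2.56, SE 0.428, edgeR adjusted p = 0.000285), and IL34, the other CSF1R ligand, was at 1.53 in K562 and 1.96 in MOLM13. IL5 had 0.319 CPM in K562 and 0.238 in MOLM13. CSF2, IL3, CSF3, EPO, IL6 and CXCL12 held 0 to 10 counts in each library of either line, and IFNG held 0 counts in every library.

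Other genes of the same pathways were taken from fixed lists. These lists were also chosen with earlier results of these data known, so their shares beside all genes are descriptions. Of 25 partner and related receptor chains tested between lines, 8 were higher in MOLM13 and 6 lower, or 56% called against 41.3% of all genes (median difference 0.28, against -0.0047 over all genes). IL3RA, the IL-3 chain that pairs with CSF2RB, was higher in MOLM13 (2.74, SE 0.264, edgeR adjusted p = 1.82e-06) and LEPR, the leptin receptor, lower (-3.35, SE 0.331, adjusted p = 2.41e-06). Of 37 kinases and adaptors, 10 were higher and 6 lower (43.2% called, near the 41.3% of all genes, median 0.30), with PIK3R1, a PI3-kinase subunit, at 2.17.

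Of 8 STAT list genes, 2 were higher in MOLM13 and 2 lower (50% called against 41.3% of all genes, median 0.16). STAT5A, a main carrier of EPOR and CSF2RB signals, was at -3.52 (SE 0.300, edgeR adjusted p = 5.89e-07) and the interferon response factor IRF1 at 1.52. Of 30 inhibitors and turnover genes, 14 were higher and 3 lower (56.7% called, median 0.345), led by DUSP6, a phosphatase, at 8.60 and SOCS3, a feedback inhibitor of cytokine signalling, at -2.72. Of 18 regulators, 11 were higher and 5 lower (88.9% called, median 1.43), with CEBPA, a granulocyte and monocyte factor, at 11.03 (SE 0.447) and TAL1, an erythroid and stem cell factor, at -10.76 (SE 0.359).

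After Ro, 0 genes of these lists passed in either line without the block (edgeR, with at most 1 gene per list at an unadjusted p under 0.05). With the block in MOLM13, 4 of 16 regulators fell and 0 rose (median -0.09), against 2.11% called of all genes. IRF8, a monocyte and dendritic cell factor, fell from 101, 121, 168 and 169 CPM to 54.9, 104, 100 and 104 (-0.61, SE 0.0868, edgeR adjusted p = 0.000396). MYB, GFI1 and CEBPA were the other regulators, at -0.51, -0.62 and -0.29, and are named because they passed, after their values were seen.

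Of the remaining lists in that fit, 1 of 30 inhibitors and turnover genes rose, ADAM17, a protease that sheds receptors such as IL6R (0.37, SE 0.0942, edgeR adjusted p = 0.041). Of 37 kinases and adaptors, MAP2K1 (0.33) rose and GRK2 (-0.36), a kinase that desensitizes G protein-coupled receptors, fell, both likewise named after their values were seen. None of 26 partner chains and 8 STAT list genes passed. Of the monocytic and granulocytic markers, 3 of 16 tested fell, ELANE (-0.44), PRTN3 (-0.41) and CEBPA, and 0 rose. The summed level of that list ran from 1504 to 3290 CPM with DMSO and from 1211 to 2814 with Ro, and its part in the change of CXCR4 was not tested.

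In each list, the gene of smallest p in each direction was taken among genes of 1 sign in all 4 pairs. In MOLM13 these were IRF8, given above, and IL10RA (0.33), CXCR3 (-1.30), SOS1 (0.20), GAB1 (-0.23), ADAM17 and CISH (-0.26), and apart from IRF8 and ADAM17 they did not pass in either fit. In K562 they were IL5RA (0.66), IL10RA (-0.46), MAPK3 (-0.09), PIAS4 (0.43), RGS16 (-0.40) and MYB (-0.55), as unpaired log2 changes, and none passed. No STAT list gene had 1 sign in all 4 pairs of either line.

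The pattern of each receptor over the 16 libraries, as log2 CPM less the mean of its line, was set beside that of every gene with a mean of at least 10 CPM in a line where the receptor also had it. These are descriptions, since the points share libraries, pairs and depth. CSF1R was most like RPS15A (r = 0.981) and RPS18 (r = 0.98), both ribosomal protein genes, and its r with RPL7 was 0.714 (rho 0.679). By line, with 8 libraries each, the r with RPL7 was 0.477 (rho 0.357) in MOLM13 and 0.743 (rho 0.714) in K562. CXCR4 was most like LYST (r = 0.944) and COG3 (r = 0.85), and CSF3R like TMCO4 (r = 0.924) and FBXW4 (r = 0.914).

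FLT3 was most like SYNPO2 (r = 0.877) and KANK1 (r = 0.869), IL6R like N4BP2 (r = 0.846) and ZNF215 (r = 0.833), and IFNGR1 like LNX2 (r = 0.803) and ATP6V0D1 (r = 0.772). For FLT3 and IL6R the genes whose copies lie in their introns were unlike them, with r of -0.341 for KATNBL1 and -0.477 for PSMD8. By line, r was 0.128 in MOLM13 and -0.647 in K562 for KATNBL1, and -0.49 and -0.589 for PSMD8. KIT, EPOR and CSF2RB had a mean under 10 CPM over the 8 libraries of each line and were left out.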

How the data were processed

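The libraries were prepared with the QuantSeq 3′ FWD kit, with ERCC spike-in RNA that was not used here. Mapping and quantification were done by the authors in their own pipeline. The submitters' processing notes name Trim Galore, STAR 2.5.3a, SAMtools 1.5 and the genome build hg38, and the counting program, its strand setting and the annotation are not given in the sources used here. The authors deposited whole-number counts of reads per gene, without normalization, for 25221 genes. Coordinates are those of GENCODE release 29 on the same build, and promoter windows those of RefSeq on GRCh38.p14.

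Samples were grouped by line and treatment from the labels. The tests on counts used edgeR 4.0.16 under R 4.3.3 (quasi-likelihood F test, Benjamini-Hochberg adjustment over all genes, threshold 0.05, TMM scaling) after a filter that kept genes reaching 10 counts in 4 or more libraries. Comparisons were Ro against DMSO within each line, MOLM13 against K562 with DMSO, the interaction of line and Ro, and an F test of the pair terms, whose value is the range over pairs. SE values are the log2 change divided by the root of F. Levels per pair use log2 CPM with a prior count of 2. The paper names no pairing, so the pair number entered as a block in a second fit. Titles number the pairs, and same-numbered libraries deviated together from their group means (correlation across genes 0.385 to 0.831 in MOLM13 and 0.109 to 0.416 in K562).

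The limit that a count of 0 allows was set at 3 counts, and intervals and limits from counts cover counting error only. Alternatives were DESeq2 1.42.0, its size factors in edgeR, upper-quartile scaling, a minimum of 50 counts or no filter, the block, and leaving out libraries or pairs. The 9 receptors and the gene lists were chosen with earlier results of these data known. Besides the receptors, the text names all ligands, the gene with the smallest p in each direction per list (for Ro, among genes of 1 sign in all 4 pairs), and the 2 genes most like each receptor with at least 10 CPM. Some genes named by this rule are not reported here.  Python 3.11.15 with scipy 1.17.1, pandas 2.3.3 and numpy 2.4.6 made the tables, and matplotlib 3.10.9 the plots.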

Additional observations from a re-analysis of the deposited data

Results flagged for a closer look

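In each group of 4 libraries the highest and the lowest receptor level were compared with the others by Dixon's criterion. Of 36 groups, 3 held a library past it, and chance alone gives about 1 in 20. All 3 were in K562 with DMSO. KIT in pair 4 was at 17.5 CPM, on 100 counts, against 8.78 to 10.1 CPM in the other libraries. CSF3R in pair 4 was at 2.98 CPM, on 17 counts, against 0.291 to 0.648 CPM. EPOR in pair 2 was at 1.45 CPM, on 5 counts, against 6.31 to 7.04 CPM. These are the libraries with the smallest total counts, 4383241 in pair 4 and 3143129 in pair 2, and the part of depth in these values was not tested.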

How the results depend on the processing

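Of the receptor values recomputed under the alternatives, 751 kept their direction and their side of the threshold, 63 changed sign, 12 lost a call and 11 gained one. Between lines the calls of KIT, FLT3, CSF1R, CSF3R, IL6R and CXCR4 held under every alternative run. All alternatives used the same counts, so they do not bear on the uncertainty of the CSF1R counts. The count of genes called for Ro in MOLM13 went from 0 to 1 with DESeq2, and to 317 (edgeR) and 266 (DESeq2) with the pair as a block, and leaving out libraries or pairs gave 0 to 358. For Ro in K562 the block gave 2 genes with DESeq2, and the block on pairs 1 and 3 alone gave 418. For the interaction the block gave 3 with DESeq2. The block changed 1 receptor call, CXCR4 in MOLM13. For pairs in K562 the 20 genes became 89 without a filter, 0 with a minimum of 50 counts and 490 with DESeq2, and 0 to 2491 with libraries left out, the highest without the Ro library of pair 4. The causes were not tested.

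Sign changes were in uncalled values, given as log2 changes. IFNGR1 in MOLM13 was 0.016 with upper-quartile scaling, 0.0095 with a minimum of 50 counts, and 0.036 (edgeR) and 0.013 (DESeq2) with the block. FLT3 in K562 was -0.045 with upper-quartile scaling, -0.011 with 50 counts, -0.086 (edgeR) and -0.066 (DESeq2) with the block, and -0.39 in pairs 1 and 3, where EPOR was -0.19, IL6R -0.33 and IFNGR1 0.10. FLT3 in the interaction was -0.018 with DESeq2 size factors, -0.0085 without a filter and -0.015 with DESeq2. With 1 library or 1 pair left out, MOLM13 values ran from -0.050 to 0.086 for FLT3, -0.21 to 0.25 for CSF2RB and -0.15 to 0.14 for IFNGR1. K562 values, likewise with 1 left out, ran from -0.35 to 0.21 for FLT3, -0.089 to 0.43 for CSF1R, -1.17 to 0.045 for CSF3R, -0.035 to 0.51 for EPOR and -0.37 to 0.32 for IL6R. Interaction values ran from -0.20 to 0.14 for FLT3, -0.43 to 0.63 for CSF2RB, -0.43 to 0.11 for IL6R and -0.75 to 0.60 for CXCR4. Genes that are not receptors were not recomputed with libraries left out. In K562, CXCR4 held 0 to 4 counts per library and CSF2RB 1 to 20.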
